A study of Papio anubis and Macaca fascicularis and Castor canadensis with 48 samples.

Results

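The kidney and the liver of the olive baboon (Papio anubis) were compared in 12 of the 48 RNA sequencing libraries of a series on mammalian longevity, 6 libraries per organ. The libraries were chosen by their labels alone, as the columns named baboon kidney and baboon liver with replicate numbers 1 to 6. All 12 are labelled as adult males of wild-type genotype, the protocol calls the animals young adults from the Southwest National Primate Research Center, and organs were frozen on dry ice before RNA was taken up on a column kit. The other libraries used below were 6 baboon brains, 5 kidneys and 6 livers of long-tailed macaque (Macaca fascicularis), with the same labels and origin, 6 macaque cerebella that entered only the macaque fit and its spread, and 1 kidney and 1 liver of American black bear (Ursus americanus), also labelled adult male and wild type but collected by the procedure of an earlier study. The labels do not say whether each library came from its own animal, so p-values measure the spread between these libraries.

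Kidney and liver are both organs of polarised epithelium with very different work. Kidney tubule cells reclaim sodium, glucose, amino acids, phosphate and water from the filtrate of the glomerulus, and each tubule segment is known for its own set of carriers, channels and water pores. Hepatocytes secrete albumin, clotting factors, complement and lipoproteins into the plasma, make urea and bile acids, and take up and modify foreign compounds. The table's rows are mouse Ensembl gene IDs without names, and 0 of 16816 IDs matched the RefSeq gene table of the baboon (Panubis1.0) used here. Tubule, transport and hepatocyte genes were therefore not read out by name, the organ labels were not checked against marker genes, and genes are described as groups and by 4 IDs.

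The liver libraries were the deeper ones, with 24084789 to 26381626 counts against 15802387 to 18679932 in kidney. Liver RNA was concentrated in far fewer genes. The most counted genes that together hold 50% of a library's counts numbered 30 to 47 in the 6 livers and 621 to 822 in the 6 kidneys, with means of 38 ± 6.48 and 693.5 ± 72.5 (SD, n = 6 each). The organs did not overlap, and the exact two-sided permutation test gave p = 0.00216 (adjusted p = 0.00216 over 3 tests). That is the smallest p that 6 against 6 libraries allow when taken as unpaired, as they were here. A test paired by replicate number was not run. The single most counted gene held 2.88% ± 0.410 of the counts in kidney and 19.4% ± 4.99 in liver, with the same p in the same test. Brain resembled kidney here, with 826 to 945 genes holding 50% of the counts.

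**Figure D1:**
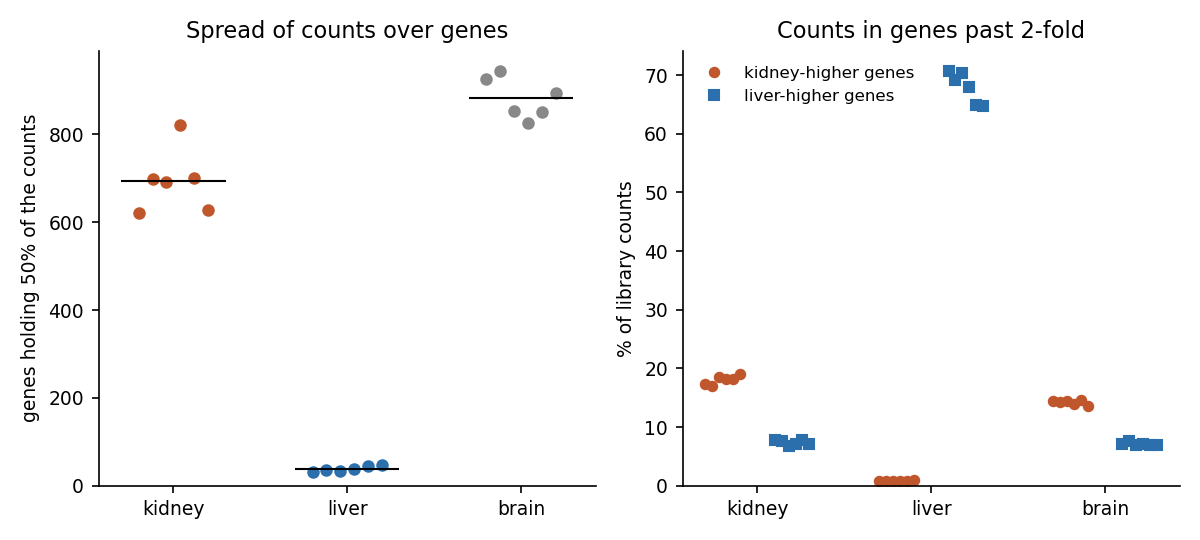
Left, the number of most counted genes that hold 50% of the counts in each baboon library (points, 6 per organ; lines, means). Right, the percent of each library's counts in genes called past 2-fold higher in kidney (circles) or in liver (squares). Livers lie at 30 to 47 genes against 621 to 822 in kidneys, and liver-higher genes hold 64.7% to 70.7% of liver counts.

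By mean share over the 6 libraries, 39 genes held 50% of the liver counts and 709 held 50% of the kidney counts, and 11 genes belonged to both sets. Of the 39 liver genes, 34 were past a 2-fold difference in favour of liver, none in favour of kidney, and 5 were not past it in either direction (edgeR test described below). Of the 709 kidney genes, 145 were past 2-fold in favour of kidney, 71 in favour of liver, and 493 in neither direction. Most of the counts in kidney thus fell on genes that were not called past 2-fold, and in liver on genes that were. The macaque, whose libraries took no part in choosing these sets, had 45 such genes in liver and 630 in kidney. The liver sets shared 35 genes, which is 89.7% of the baboon set and 77.8% of the macaque set. The kidney sets shared 566 genes, which is 79.8% and 89.8%.

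Within each organ the libraries resembled each other closely. Spearman correlations across the 13890 tested genes ran from 0.972 to 0.986 between kidneys, from 0.962 to 0.983 between livers, and from 0.743 to 0.770 between a kidney and a liver. Genes are not independent replicates, and these values are a description. Livers 5 and 6 stood apart from the rest: they correlated at 0.983 with each other and at 0.962 to 0.971 with livers 1 to 4, which correlated at 0.970 to 0.980 among themselves. Livers 5 and 6 also had the lowest shares for the most counted gene, down to 12.4% in liver 6, where livers 1 to 4 lay at 20.7% to 24.3%. The spread, the restricted genes and the numbers of genes called are therefore also given without livers 5 and 6. The shares of counts were not recomputed without them. Among the kidneys, 1 and 5 correlated at 0.985 with each other and at 0.972 to 0.980 with the other kidneys. Those others correlated at 0.975 to 0.986 among themselves. No result is given without kidneys 1 and 5 together.

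**Figure D2:**
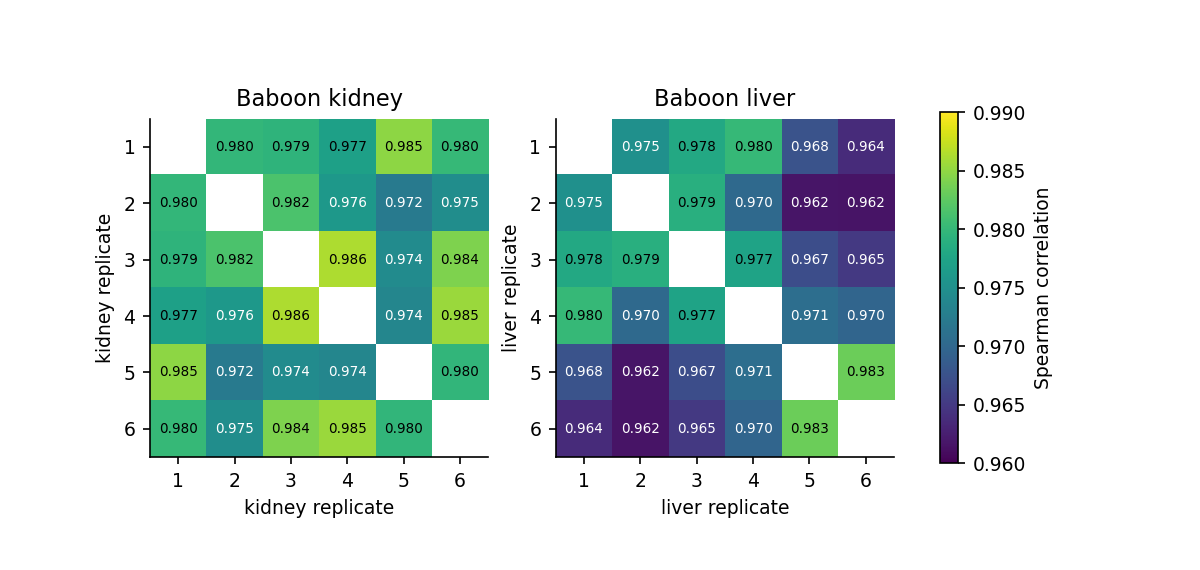
Spearman correlations between the 6 baboon kidneys (left) and between the 6 baboon livers (right) over 13890 genes on log2 TMM-scaled CPM. Livers 5 and 6 correlate best with each other (0.983) and less with livers 1 to 4 (0.962 to 0.971).

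Livers varied more among themselves than kidneys did. Over the 7383 genes with a mean of at least 10 TMM-scaled CPM in both organs (CPM on a library size corrected for composition), the median SD of log2 levels was 0.23 in liver and 0.17 in kidney. The SD was larger in liver for 5127 of these genes, or 69.4%. Without replicates 5 and 6 of both organs the median SDs were 0.20 and 0.17, and 60.5% of genes had the larger SD in liver. The part of depth or tissue sampling in this spread was not tested.

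Most genes tested differed between the organs, so being called sets a gene little apart. At an adjusted p under 0.05 in edgeR's quasi-likelihood test with Benjamini-Hochberg adjustment, 9239 of 13890 genes (66.5%) differed, 4907 (35.3%) higher in kidney and 4332 (31.2%) higher in liver. The split depends on the scaling: with total counts alone, without the TMM correction for composition, 11133 genes were called higher in kidney and 1122 higher in liver. A stricter call asked whether the difference exceeded 2-fold (edgeR's glmTreat). It was passed by 3904 genes (28.1%), of which 2221 (16%) were higher in kidney and 1683 (12.1%) higher in liver. The 6 kidneys and the 6 livers did not overlap for 2030 of these kidney-higher and 1535 of these liver-higher genes, where 44.7% of all tested genes were without overlap in either direction. In bulk tissue, fewer cells of a type and less RNA per cell cannot be told apart, here and in all that follows.

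Among genes called at the adjusted p, more were at least 4-fold higher in kidney than in liver. A fold against no or few reads is not measured, so a level under 0.0764 TMM-scaled CPM in the lower organ, which is 3 read pairs over the 6 livers, was set to that value in both organs and the numbers are lower limits. A difference of at least 4-fold was then found for 1687 genes higher in kidney and 1135 higher in liver. At 16-fold or more the numbers were 609 and 434, and at 256-fold or more 92 and 127. Weakly expressed genes cannot reach the last size at this depth, so that balance is not one of all genes. With levels under 0.0764 set to that value, the median log2 fold change was 1.28 over the genes called higher in kidney. It was -1.06 over those called higher in liver.

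**Figure D3:**
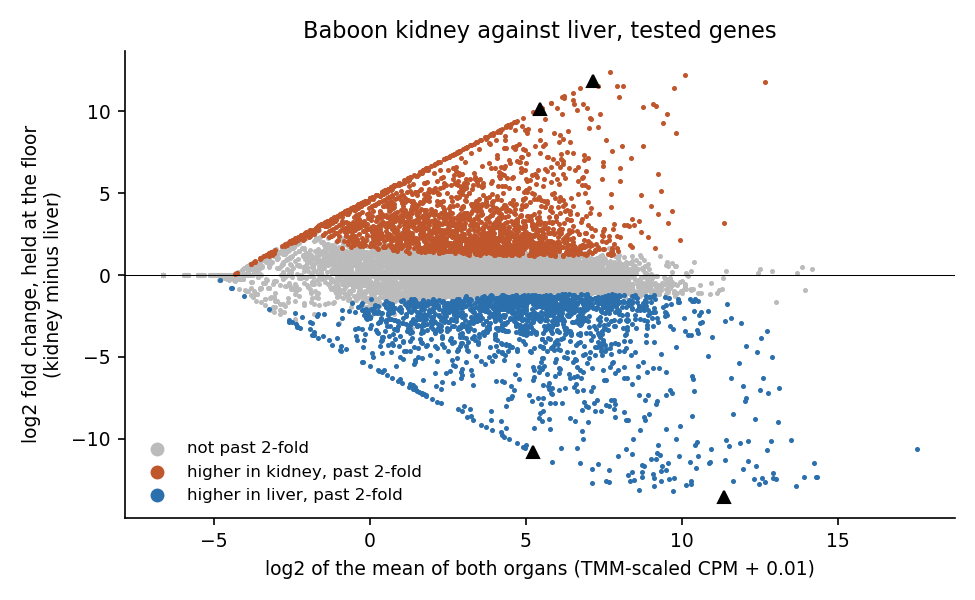
Log2 fold change of kidney against liver (vertical axis) by the log2 mean level of both organs (horizontal axis) for the 13890 tested genes. For the change, levels under 0.0764 TMM-scaled CPM were set to that value. Colours mark the 2221 genes past 2-fold higher in kidney and the 1683 higher in liver, and triangles mark the 4 genes described by ID. The oblique edges are genes held at 0.0764 in the lower organ. Liver-higher genes reach higher levels than kidney-higher genes.

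Liver-higher genes were strongly expressed and kidney-higher genes mostly modestly. The median level in liver of the 1683 liver-higher genes past 2-fold was 53.0 TMM-scaled CPM, against 16.4 over all tested genes in liver. The median level in kidney of the 2221 kidney-higher genes was 12.7, below the 17.1 over all tested genes in kidney. A level of at least 1000 in liver was reached by 128 of the liver-higher genes, where 171 of all tested genes reached it. In kidney it was reached by 15 of the kidney-higher genes, where 42 of all tested genes reached it. Gene length enters every such level, so these are comparisons of groups of genes and not of single genes.

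The same asymmetry appeared in the share of each library. The 1683 liver-higher genes held 64.7% to 70.7% of the counts of the 6 livers and 6.75% to 7.84% of those of the 6 kidneys. Livers 5 and 6, at 64.9% and 64.7%, were the lowest of the 6. The 2221 kidney-higher genes held a median of 18.1% (SD 0.731, n = 6) of the kidney counts and 0.725% to 0.886% of the liver counts. These genes were chosen for their difference in these same libraries, so the shares describe its weight and are no test of it. In libraries that did not choose them, the liver-higher genes held 61.8% to 66.6% of the counts in macaque liver and 6.90% to 8.00% in macaque kidney. The kidney-higher genes held 16.3% to 18.7% in macaque kidney and 0.886% to 1.12% in macaque liver. In bear, with 1 library each, the liver-higher genes held 65.1% of the liver and 6.74% of the kidney counts, and the kidney-higher genes 9.36% of the kidney and 1.40% of the liver counts.

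A small set of genes had at least 20 TMM-scaled CPM in 1 organ and was at or near 0 in the other. A gene was taken as restricted to an organ when it passed the 2-fold test without overlap, had at least 20 TMM-scaled CPM there, and had at most 6 counts over all 6 libraries of the other organ. Since low counts were even in 98.5% to 99.4% of cases, 2 counts were taken as 1 read pair, and 6 counts as 3 pairs. By this rule 45 genes were restricted to kidney, 10 of them without any count in liver. There were 13 restricted to liver, 5 of them without any count in kidney. Without the limit on counts in the other organ, 885 kidney-higher genes (6.37% of those tested) and 1104 liver-higher genes (7.95%) met the rule. The 6 counts stand for 0.0764 TMM-scaled CPM in liver and for 0.0418 in kidney. With 0.0764 as the limit on both sides, 45 and 20 genes were restricted. Without livers 5 and 6, 60 genes were restricted to kidney and 15 to liver under the count limit. For the kidney-restricted genes that limit is easier to meet with 4 livers than with 6. For the liver-restricted genes it was still taken over 6 kidneys.

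Restricted genes kept their side in the macaque. All 45 kidney-restricted genes were tested there, and all 45 were past 2-fold higher in macaque kidney. That call was received by 15.7% of all genes tested in macaque and by 74.8% of the kidney-higher genes of baboon past 2-fold. Of the 13 liver-restricted genes, 12 were tested and all 12 were past 2-fold higher in macaque liver. That call was received by 11.3% of all genes and by 73.8% of the liver-higher genes of baboon past 2-fold. In bear, 38 of the 45 kidney-restricted genes had more CPM in kidney, 2 had more in liver and 5 had no count in either. Of the 13 liver-restricted genes, 9 had more in bear liver, 0 had more in bear kidney and 4 had no count in either. Among all tested genes with at least 1 CPM in 1 of the bear organs, 60.4% had more in kidney and 39.6% more in liver. These bear levels are plain CPM, not corrected for composition.

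Brain was the other baboon organ measured. A mean brain level of at least 1 TMM-scaled CPM was found for 13 of the 45 kidney-restricted genes and for 2 of the 13 liver-restricted ones, against 90.2% of all tested genes. Of the 2221 genes past 2-fold higher in kidney, 44.1% had a higher mean in brain than in kidney, 36.9% lay between the organs and 19% lay below liver. Of the 1683 liver-higher genes, 12.5% had a higher mean in brain than in liver, 35.7% lay between and 51.8% lay below kidney. Over all tested genes the shares were 40.3%, 20.2% and 39.5%. The share of kidney-higher genes with more in brain was thus near that of all genes, and that of liver-higher genes was lower. The low-count filter used all 18 baboon libraries, so genes with counts in brain alone could be tested too. Such genes raise the brain shares over all tested genes, which limits these comparisons. These shares carry no test, since the genes were chosen on kidney and liver.

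The 4 genes below are given by ID. They were the 2 at either end of the fitted log2 fold change among genes past 2-fold, without overlap and with at least 20 TMM-scaled CPM in the higher organ. Where the lower organ had no count the fitted value depends on the fit. With low levels set to the lower limit described for the fold sizes, 2 other genes exceeded ENSMUSG00000032373 and 25 exceeded ENSMUSG00000030160. On the liver side 61 exceeded ENSMUSG00000043013 and 0 exceeded ENSMUSG00000025991. Levels below are TMM-scaled CPM, those of macaque scaled within its own fit and those of bear plain CPM.

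ENSMUSG00000032373 was higher in kidney than in liver in all 3 species. Its level was 162 to 405 in the 6 baboon kidneys, with a median of 295, and it had no count in any of the 6 livers. Kidneys 5, 1 and 2 were the high ones, at 405, 379 and 347, and kidney 3 was the lowest. The difference was at least 3762-fold, taking 6 counts over the 6 livers as the limit (edgeR adjusted p = 2.19e-10). In brain it lay at 0.0925 to 0.778. In macaque it lay at 170 to 427 in kidney and at 0 to 0.274 in liver, and in bear at 42.9 in kidney and 0.267 in liver.

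ENSMUSG00000030160 was also higher in kidney, and at or near 0 in the other baboon organs. Its level was 54.9 to 165 in the 6 kidneys, with a median of 81.3, and it had no count in the 6 livers. Kidney 5 was set apart at 165, and the next highest was kidney 3 at 88.2. The difference was at least 1155-fold (edgeR adjusted p = 3.03e-10). Brain held 6 counts over 6 libraries. Macaque kidneys lay at 106 to 148, and 1 of the 6 macaque livers had 2 counts. In bear the levels were 30.3 in kidney and 0.134 in liver.

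ENSMUSG00000025991 showed the most negative fitted change. Its level was 3235 to 6137 in the 6 livers, with a median of 5523, and 0.263 to 0.586 in the 6 kidneys, with a median of 0.423. Liver 5 was the low one, at 3235, and the other livers lay between 5070 and 6137. On the log2 scale kidney minus liver was -13.55 ± 0.45 (SE; adjusted p = 5.23e-14, edgeR). Unlike the other genes given here it was detected in all 6 libraries of the lower organ. Brain lay at 0.374 to 2.05, in the range of kidney or somewhat above. Macaque livers lay at 3376 to 10762 and macaque kidneys at 0.421 to 0.937, which differed by -13.14 on the log2 scale (adjusted p = 4.58e-13, edgeR). In bear the levels were 2638 in liver and 1.24 in kidney.

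ENSMUSG00000043013 was higher in liver than in kidney, at a moderate level in liver. It lay at 54.1 to 122 in the 6 livers, with a median of 63.7, and had no count in the 6 kidneys. Livers 5 and 6 were the highest, at 122 and 88.5, against 54.1 to 66.0 in livers 1 to 4. The difference was at least 1804-fold in favour of liver, taking 6 counts over the 6 kidneys as the limit (edgeR adjusted p = 2.93e-10). At that limit the log2 change was -10.82, and -10.49 without livers 5 and 6. Brain lay at 0 to 0.468. Macaque livers lay at 55.3 to 117 and macaque kidneys at 0 to 0.0937, and in bear the level was 9.09 in liver with no count in kidney.

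**Figure D4:**
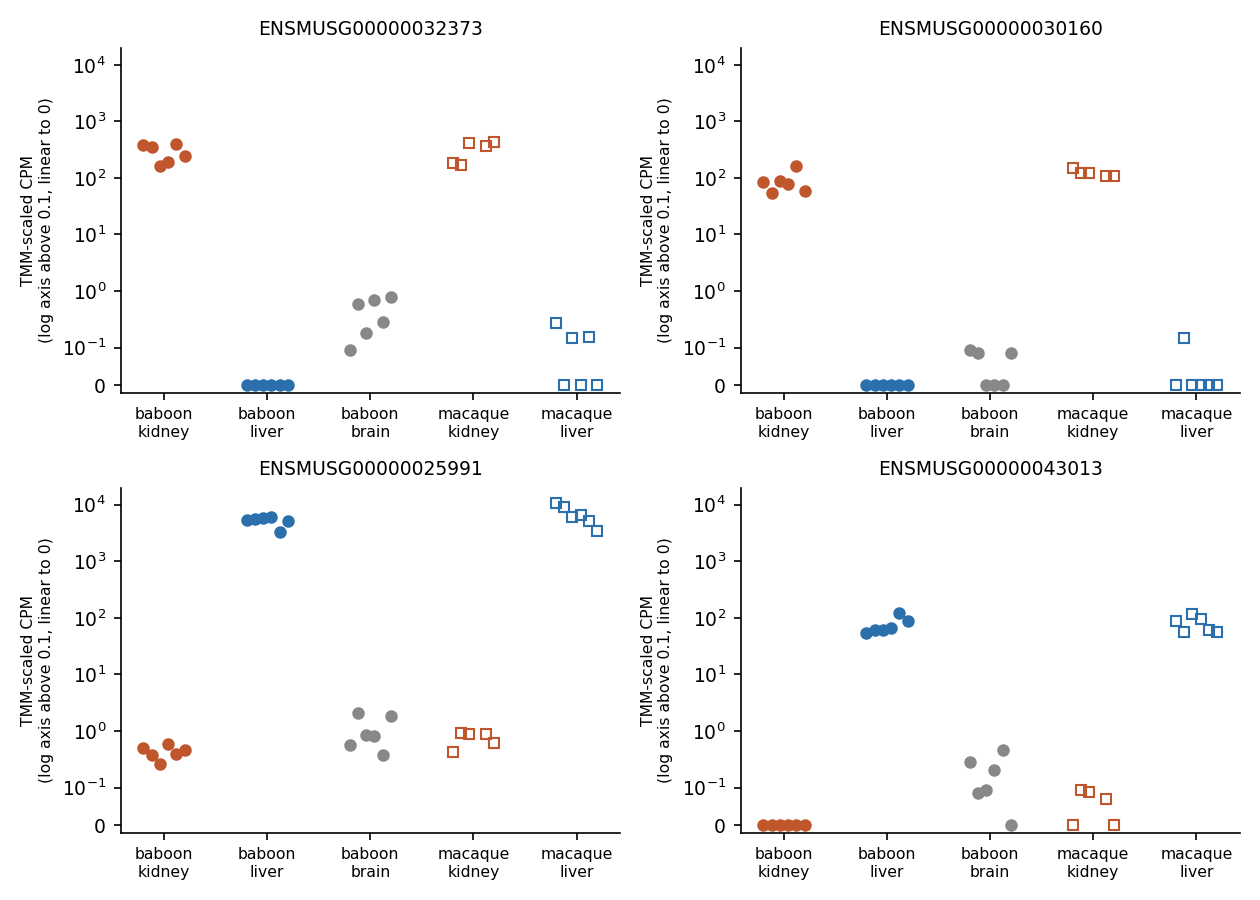
Level of the 4 genes in each library of baboon (filled circles) and macaque (open squares), in TMM-scaled CPM on a log axis that is linear near 0. In both primates the kidneys and livers do not overlap for any of the 4 genes.

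The macaque comparison asked how far the organ difference held in a related primate with separate libraries. Of the 2156 kidney-higher genes of baboon past 2-fold that were tested in macaque, 1612 (74.8%) were past 2-fold in the same direction and 1911 (88.6%) were called in that direction at the adjusted p. Of 1631 liver-higher genes tested, 1203 (73.8%) and 1492 (91.5%) were. In macaque 63.1% of all tested genes were called (32.7% higher in kidney, 30.4% higher in liver), and 27% were past 2-fold (15.7% and 11.3%). For the medians, low levels in the lower organ were set to a lower limit in each species. The median log2 fold change of the kidney-higher genes was 2.83 in baboon and 2.46 in macaque. That of the liver-higher genes was -2.52 and -2.31. Because the genes were chosen for a large difference in baboon, a smaller median in macaque is favoured by the choice.

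**Figure D5:**
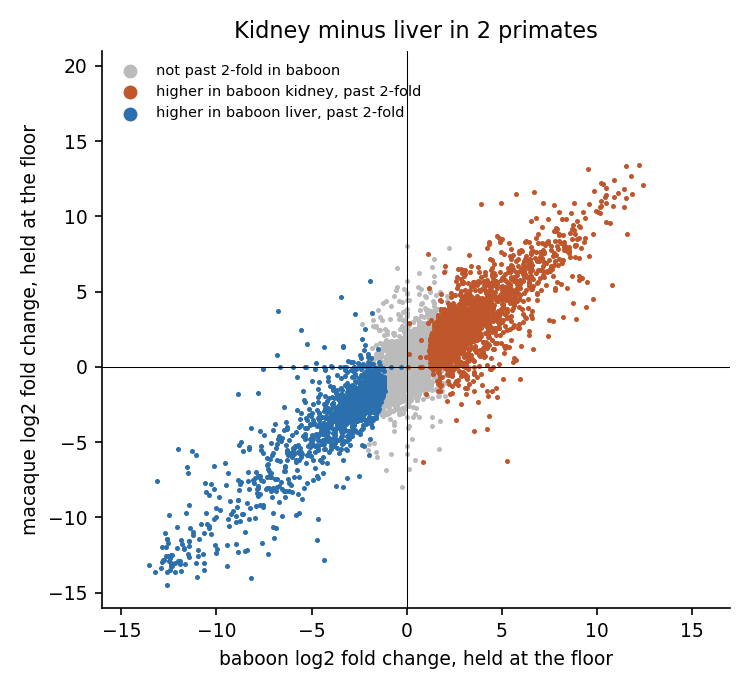
Log2 fold change of kidney against liver in baboon (horizontal) and macaque (vertical) for genes tested in both. Low levels in the lower organ were set to a lower limit in each species. Colours mark genes past 2-fold in baboon, of which 74.8% (kidney-higher) and 73.8% (liver-higher) were past 2-fold the same way in macaque.

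A test of the difference itself, the interaction of organ and species over 23 libraries, called 1361 of 13600 genes (10%), 5.21% of all with a higher kidney to liver ratio in baboon than in macaque and 4.8% with a lower one. Of the kidney-higher genes of baboon, 349 of 2161 were called (16.1%), 257 with a larger organ difference in baboon and 92 with a smaller one. Of the liver-higher genes, 281 of 1651 were called (17%), 191 larger and 90 smaller in baboon. The choice of genes on baboon favours the larger side. None of the 4 genes given by ID was called, with edgeR adjusted p = 0.191 for ENSMUSG00000032373, 0.503 for ENSMUSG00000030160, 0.613 for ENSMUSG00000025991 and 0.136 for ENSMUSG00000043013. All but ENSMUSG00000025991 had no count in 1 baboon organ, so their interaction estimates are imprecise. In the order given they were 3.90, 1.82 and -3.01 on the log2 scale, with SEs of 1.79, 1.45 and 1.22. The missing calls therefore do not show an equal organ difference in the primates. The part that mapping of baboon and macaque reads onto mouse gene IDs plays in these differences was not tested.

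Genes that were past 2-fold in opposite directions in the primates numbered 19. They were 12 of the 2156 kidney-higher and 7 of the 1631 liver-higher genes of baboon tested in macaque. Of the 19, 17 were called in the interaction test, a call that this choice of genes favours. For 8 of those 17 kidneys and livers did not overlap in either primate. The share was 31.8% over all genes tested in both, which were not chosen for their difference. None of the 8 had a mean of at least 20 TMM-scaled CPM in the higher organ of both primates.

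In bear, the direction could be set against baboon without a test. Among genes with at least 1 CPM in 1 of the bear organs, 1315 of 1556 kidney-higher genes of baboon (84.5%) had more CPM in bear kidney than in bear liver, against 60.4% of all tested genes. Of the liver-higher genes, 1047 of 1393 (75.2%) had more in bear liver, against 39.6% of all tested genes.

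More genes were detected in kidney than in liver at the same level. Liver libraries held more counts in total, but 6 counts over 6 libraries stand for 0.0764 TMM-scaled CPM in liver and 0.0418 in kidney. A count thus weighs more in liver, and its part in the gap was not tested. At a level of at least 1 TMM-scaled CPM, 12158 ± 103 genes were found in kidney and 11572 ± 81.1 in liver (SD, n = 6 each). The organs did not overlap (exact two-sided unpaired permutation p = 0.00216, adjusted p = 0.00216 over 3 tests). On plain CPM, which the few dominant genes lower in liver, the numbers were 12436 ± 130 and 10914 ± 105. The gap was thus 586.5 genes on the corrected scale and wider on the plain one.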

How the data were processed

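Gene expression was measured by bulk RNA sequencing. Raw counts were deposited as 1 table, with 16816 genes as rows and libraries as columns. STAR and featureCounts are named in the submitters' processing notes, without a version; the build, annotation, strand setting and mapping to mouse IDs are not given in the sources here. No column (0) lacked a matching sample title. Counts were tested with edgeR 4.0.16 in R 4.3.3 (TMM factors, filterByExpr with a minimum count of 10, quasi-likelihood F test, glmTreat against a log2 fold change of 1, Benjamini-Hochberg adjustment over all genes tested). All 18 baboon libraries were fitted together, as were the 17 of macaque, and the interaction used the 23 kidney and liver libraries of both. The fit was tested on data simulated from the same mean profile for all organs, with few changed genes. That simulation held no difference in composition and so did not test the scaling between kidney and liver. Mean TMM factors were 1.38 in kidney and 0.517 in liver. Permutation tests used scipy 1.17.1.

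Members, lists and tests were chosen with earlier results of these data known. The 42 gene lists, written as symbols, were not tested because no ID was matched to a name. The naming rule (the most extreme genes past 2-fold, at least 20 TMM-scaled CPM, without overlap) was used without its symbol condition and for 2 genes per direction. Genes that share reads with near-identical, overlapping or antisense genes could not be told apart. Intervals were not computed, and the limit of 6 counts covers counting error only. Alternatives were other scaling factors, no filter, 12 libraries, a replicate block, halved counts, DESeq2 1.42.0 and libraries left out.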

Additional observations from a re-analysis of the deposited data

Results flagged for a closer look

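In 33 groups of 5 or 6 libraries checked for a library far from the others, 3 held such a library. Chance alone gives about 1 in 20 where values are normally spread, which does not hold for groups near 0. ENSMUSG00000025991 was lowest in baboon liver replicate 5, at 3235 TMM-scaled CPM, with a gap to the other 5 livers. ENSMUSG00000030160 was highest in baboon kidney replicate 5, at 165 TMM-scaled CPM. The same gene was highest in long-tailed macaque liver replicate 2, at 0.147 TMM-scaled CPM. That is 2 counts where the other macaque livers had none, a case that the check always marks. The difference between kidney and liver itself differed between baboon and macaque for 1361 genes by the interaction test.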

How the results depend on the processing

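The numbers of genes called and past 2-fold stayed within 1.5 times of the values given under RLE and upper-quartile scaling, no filter, 12 libraries, halved counts, DESeq2 (not used for the 2-fold test) and without any 1 baboon kidney or liver. Leaving out 1 library gave 8954 to 9149 called genes and 3814 to 3903 past 2-fold. Leaving out livers 5 and 6 together, an alternative added after seeing the data, gave 8998 and 3870. The exception was scaling by total count alone, which called 11133 genes higher in kidney and 1122 higher in liver, 90.8% against 53.1% of calls in favour of kidney. The median over all tested genes was 0.06 on the log2 scale, 1.47 with that scaling and 0.18 with upper-quartile scaling. Each of the 4 genes kept its direction and its call in 20 alternatives (total count scaling was not run for single genes), with a largest adjusted p of 3.06e-07 (edgeR or DESeq2). The macaque count ran from 8368 to 9014 and the interaction count from 1303 to 1391.

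With the replicate number as a block, 9345 genes were called and 3897 were past 2-fold in baboon, 8864 were called in macaque and 1391 in the interaction, and no call on the 4 genes changed. The permutation tests were run only on unpaired libraries. The labels do not say that a number marks an animal. Deviations from the organ means correlated at 0.06 to 0.25 between same-numbered kidney and liver, over 0.1 in 4 of 6 pairs, and at -0.11 to 0.05 between others. All 6 kidneys and all 6 livers correlated best with their own number, a hint from the data and not from the design. The planned counts over gene lists were not run, since no ID was matched to a name.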
